A study of Mus musculus with 194 samples.

Results

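Limbic cortex (LCtx) was set against the 2 striatal structures of the series, dorsal striatum (DS) and nucleus accumbens (NAc), gene by gene, within each of 3 cocaine treatments with the time after cocaine as a covariate. A gene was kept when it differed in the same direction from both striatal structures in all 3 treatments, that is in 6 contrasts. Of 12154 genes tested in all 6 contrasts, 2642 were kept, 1422 of them higher (11.7%) and 1220 lower (10%) in LCtx. The LCtx data came from 28 mice in 29 libraries, and 114 libraries of the series entered these contrasts.

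The mice were male C57BL/6OLAHSD, 6 to 7 weeks old, and received cocaine at 20 mg/kg intraperitoneally after 3 days of habituation with saline. Acute mice received a single dose, repeated mice (named Chronic in the labels) received 5 daily doses (4 in the 0 hr mice), and challenge mice received a single dose after 21 days of abstinence from the repeated treatment. Mice were taken at 0, 1, 2 or 4 hr, where 0 hr stands for cocaine-naive, 24 hr after the previous dose, and abstinent mice, respectively. LCtx was medial prefrontal together with cingulate cortex, cut from 400 µm coronal slices, so that every value is an average over the cells of a dissected block, and in such samples fewer cells of a type and less RNA per cell cannot be told apart. The contrasts held 8, 7 and 13 LCtx mice in the acute, repeated and challenge treatments, 16, 17 and 15 DS mice, and 14, 8 and 14 NAc mice. By their cohort and animal numbers, all 28 LCtx mice also gave a DS library and 27 of them a NAc library. In the repeated treatment, part of the DS mice came from a further cohort that gave no LCtx or NAc library. Only 1 LCtx mouse stood for 4 hr in the acute and 1 in the repeated treatment.

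Cortex and striatum are built from different projection neurons. Cortical pyramidal cells release glutamate, loaded into vesicles by the transporter Slc17a7, and take their identity from transcription factors such as Neurod2, Neurod6, Tbr1, Emx1 and Fezf2. Striatal spiny projection neurons release GABA, express the dopamine receptors Drd1 or Drd2 and the protein Ppp1r1b (DARPP-32), and use enkephalin (Penk) or dynorphin (Pdyn) and substance P (Tac1) as peptide transmitters.

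Library totals were 1193306 to 10367769 counts, with a median of 3359016.5 for the 114 libraries. LCtx, DS and NAc each had a sequencing run of their own in the acute treatment, and the DS libraries used here never shared a run with LCtx, so structure and run cannot be told apart there. LCtx and NAc shared their run in the repeated treatment and both of their runs in the challenge. With run as a covariate and 1 library per mouse, 2470 genes were higher and 2405 lower in LCtx than in NAc after challenge. In the same 27 libraries without that term they were 2475 and 2393. With the term, 1381 of the 1422 and 1109 of the 1220 kept genes were called in their own direction. The rule had used this contrast, so these counts of kept genes are a description, and they do not cover the acute or DS contrasts.

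The mouse of the acute group labelled 1 hr replicate 2 stood apart from the other 7 acute LCtx mice. Its cortical projection neuron list summed to 6120 CPM (counts scaled to library size), against 9040 to 9870 in the others, its striatal projection neuron list to 2050 CPM against 1060 to 1180, its cholinergic list to 51.2 CPM against 3.81 to 8.93, its oligodendrocyte list to 4270 CPM against 1640 to 2640, and its choroid plexus and ependymal list to 169 CPM against 15.4 to 22.6. Its dopamine and cAMP cascade list was within the range of the others, at 5980 CPM against 5810 to 6320 CPM. Without this mouse, 1434 genes were kept as higher and 1253 as lower in LCtx, and these held 1407 and 1212 of the genes kept with it. Other lists differed between treatments. In LCtx and in NAc each treatment had runs and mice of its own. Treatment and run therefore cannot be told apart where levels or log2 fold changes of treatments are set side by side here and below. The blood list, whose 4 tested genes are hemoglobins, summed to 8817 to 14860 CPM in the 8 acute LCtx mice, and to at most 1492 CPM in every other LCtx, DS or NAc mouse. The striatal list in LCtx had a median of 1085 CPM (acute), 1742 CPM (repeated) and 1823 CPM (challenge), and the cortical list in NAc a median of 2277, 2765 and 2883 CPM. In repeated DS mice, the cortical list was at 3930 to 4714 CPM in the cohort without LCtx libraries. It was at 3540 to 3824 CPM in the cohort shared with LCtx. The part of these differences in the results below was not tested, except where values without that mouse are given.

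The promoters of Neurod2, Pde10a and Gpr6 are shown as examples of the motifs that were searched for in all kept genes. All are from RefSeq on GRCm38.p6, from 250 bases before to 50 after the start, read 5′ to 3′ on the strand of the gene, and capitals mark the motif named with each. Neurod2, a basic helix-loop-helix factor of cortical neurons kept as higher, lies on chr11:98329596-98329895, minus strand, with an E-box CAGATG at base 133 that overlaps a TGACAG. Pde10a, the striatal cyclic nucleotide phosphodiesterase, kept as lower, lies on chr17:8801495-8801794, plus strand, and has the same E-box on its other strand at base 142. Gpr6, an orphan receptor of striatal neurons kept as lower, lies on chr10:41072241-41072540, minus strand, with a full cAMP response element TGACGTCA at base 173.
Neurod2: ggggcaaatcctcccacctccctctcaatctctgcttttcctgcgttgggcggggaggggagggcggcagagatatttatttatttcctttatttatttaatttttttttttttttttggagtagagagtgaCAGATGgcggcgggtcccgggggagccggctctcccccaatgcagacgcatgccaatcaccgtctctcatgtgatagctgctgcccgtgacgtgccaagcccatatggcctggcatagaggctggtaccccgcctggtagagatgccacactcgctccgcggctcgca
Pde10a: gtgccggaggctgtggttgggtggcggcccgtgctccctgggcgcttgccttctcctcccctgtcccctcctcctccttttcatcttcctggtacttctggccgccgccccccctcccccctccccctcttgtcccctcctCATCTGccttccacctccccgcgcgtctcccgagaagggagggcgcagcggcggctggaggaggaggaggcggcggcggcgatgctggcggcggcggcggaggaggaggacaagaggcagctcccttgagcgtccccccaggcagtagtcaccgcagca
Gpr6: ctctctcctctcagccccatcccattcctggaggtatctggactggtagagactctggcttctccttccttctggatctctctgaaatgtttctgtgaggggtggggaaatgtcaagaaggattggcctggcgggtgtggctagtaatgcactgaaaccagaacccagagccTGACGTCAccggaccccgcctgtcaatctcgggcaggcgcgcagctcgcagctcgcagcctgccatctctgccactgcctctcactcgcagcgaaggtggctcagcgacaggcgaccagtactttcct

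A promoter was found for 1072 of the 1422 genes kept as higher, for 936 of the 1220 kept as lower and for 9565 of the 12154 tested. CAGATG, on either strand, was in 13.4% of the promoters of genes kept as higher, 12.9% of those kept as lower, 11% of all tested genes and 17.2% of all 32851 promoters of the table. TGACGTCA was in 2.71%, 2.56%, 3.36% and 1.79%, TGACAG in 15.4%, 17.8%, 16.2% and 19.2%, and the homeodomain core TAATTA in 1.49%, 2.35%, 2.24% and 5.29%. For CAGATG both kept sets lay above the share of all tested genes, and for TGACGTCA both lay below it. TAATTA was rarest in genes kept as higher, where 16 promoters held it. Differences between these shares were not tested.

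In single contrasts, a gene was called at a Benjamini-Hochberg adjusted p under 0.05 in edgeR's quasi-likelihood test with a fold change over 1.2. Against DS, 27.6% of genes were higher and 26.4% lower in LCtx in the acute treatment (54% together), 30.7% and 32.2% in the repeated (62.9%), and 32.4% and 33.8% in the challenge treatment (66.2%). Against NAc the shares were 24.4% and 24.6% (49%), 20.3% and 20% (40.3%), and 21.6% and 21.5% (43.1%). These 6 contrasts chose the kept genes, so their values are a description of the members. All log2 fold changes (log2FC) below are LCtx minus striatum, given ± SE.

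Most kept differences were moderate. The smallest absolute log2FC of the 6 contrasts had a median of 0.635 among genes kept as higher and 0.616 among those kept as lower. It exceeded 2-fold for 399 and 340 genes, 4-fold for 81 and 98, and 8-fold for 13 and 34. LCtx differed more from DS than from NAc in all 3 treatments for 857 of the higher and 693 of the lower genes, and more from NAc for 114 and 135. The DS libraries used never shared a run with LCtx, while NAc did in repeated and challenge mice. Structure and run sharing cannot be told apart in these counts. At the edge of the rule, Pcnx2 and Tkt were just inside with a smallest absolute log2FC of 0.2631 and 0.2636, and Tsc22d4 and Nup88 just outside with 0.2629 and 0.2626. Beyond the kept genes, 3663 genes had the same sign in all 6 contrasts without passing all of them, 1029 were called in both directions, and 1331 were called in none.

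**Figure D1:**
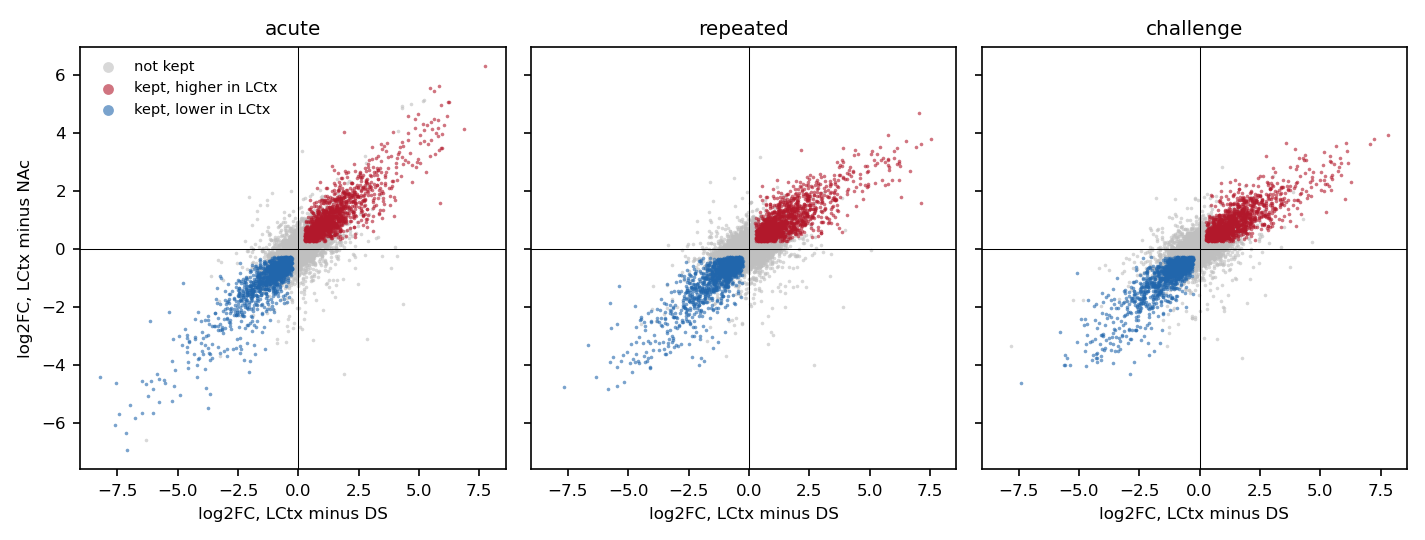
Log2FC of LCtx minus DS (x axis) against LCtx minus NAc (y axis) for the 12154 genes tested in all 6 contrasts, a panel for each treatment. Points are genes, red where kept as higher (1422), blue where kept as lower (1220) and grey where not kept. The kept genes fill the upper right and lower left by the rule, and both arms reach further along the DS axis than along the NAc axis. The DS libraries used never shared a run with LCtx. The 2 axes of a panel share their LCtx libraries.

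The levels of single mice separated for part of the kept genes. In TMM-scaled CPM, the values of all 28 LCtx mice lay above all 84 striatal values (48 DS and 36 NAc, from 48 mice that include the 28) for 374 genes, which is 3.08% of the genes tested and 26.3% of those kept as higher. All 28 lay below for 264 genes, 2.17% of those tested and 21.6% of those kept as lower.

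Grp, Rspo2 and Smoc2, which encode secreted proteins, were among the 12 genes with the largest smallest difference upwards. Grp, the neuropeptide gastrin-releasing peptide, was at 24.4 to 69.5 CPM in LCtx with a median of 39.3, at 0 to 1.32 CPM in DS with a median of 0, and at 0 to 7.22 CPM in NAc with a median of 1.95. Every LCtx mouse was above every striatal mouse. No DS library held more than 2 Grp counts in the acute and 1 in the repeated treatment, so that LCtx was at least 34.2-fold and at least 36.5-fold higher than DS, taking 3 counts per library as the floor. Against NAc its log2FC was 6.31 ± 0.24 (acute), 3.80 ± 0.21 (repeated) and 3.94 ± 0.16 (challenge), while its median in NAc was 0.2848 CPM, 2.724 CPM and 3.486 CPM. The runs differed between these treatments.

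Rspo2, a secreted enhancer of Wnt signalling, was at 14.1, 27.9 and 34 CPM (lowest, median, highest) in LCtx, 0, 0.276 and 2.1 CPM in DS, and 0, 1.55 and 4.76 CPM in NAc. Smoc2, a secreted calcium-binding matrix protein, was at 17.4, 47.4 and 64.5 CPM in LCtx, at most 1.59 CPM in DS and at most 7.48 CPM in NAc. For both genes the groups did not overlap, and the NAc mice reached higher than the DS mice. The log2FC of Smoc2 was 7.06 ± 0.19 against DS and 3.62 ± 0.14 against NAc after challenge.

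Fezf2, the transcription factor that specifies subcortically projecting neurons of deep cortical layers, lies on chr14:12342094-12348189. It was at 50.7, 75.2 and 98.3 CPM in LCtx, 0.312, 3.4 and 7 CPM in DS, and 1.8, 6.77 and 12.5 CPM in NAc. The lowest LCtx mouse was the acute mouse that stood apart, and it was still above every striatal mouse. The log2FC of Fezf2 was 4.53 ± 0.13, 4.52 ± 0.13 and 4.31 ± 0.13 against DS and 4.02 ± 0.13, 3.26 ± 0.15 and 3.06 ± 0.12 against NAc, in the order acute, repeated, challenge. Ovol2, a zinc finger transcription factor, was at 9.06 to 22.2 CPM in LCtx, at most 1.57 CPM in DS and at most 3.61 CPM in NAc. In the challenge treatment no DS library held more than 3 Ovol2 counts, and LCtx was at least 21.1-fold higher.

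Rtn4r encodes the Nogo receptor, which restrains axon growth, and lies on chr16:18127642-18152408. It was at 119, 195 and 227 CPM in LCtx, 0, 3.31 and 11.6 CPM in DS, and 2.62, 17.4 and 38.3 CPM in NAc, with no overlap. Its log2FC was 5.42 ± 0.14 against DS and 3.05 ± 0.12 against NAc after challenge. The muscle-type troponin C Tnnc1 (14.6, 41.5 and 63.9 CPM in LCtx, at most 7.64 CPM in striatum) and the myosin light chain Myl4 (27.5, 61.9 and 109 CPM, at most 13.5 CPM) also separated fully. Clec18a, a lectin-domain protein, was at 5.24 to 17.5 CPM in LCtx and at most 2.52 CPM in striatum, the hexokinase family member Hkdc1 at 9.26 to 36.6 against at most 5.95 CPM, and the transglutaminase Tgm3 at 3.1 to 11.2 against at most 1.78 CPM. C2cd4b was the exception, with 3.78 to 15.5 CPM in LCtx and up to 3.99 CPM in NAc.

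Of the 12 genes with the largest smallest difference downwards, Gpr6, Adora2a, Drd2, Penk and Ppp1r1b are well known in spiny projection neurons. Gpr6, whose promoter is shown above, was at 0.774, 6.38 and 14.6 CPM in LCtx, 196, 260 and 363 CPM in DS, and 127, 184 and 230 CPM in NAc. Adora2a, an adenosine receptor of spiny projection neurons with D2 receptors, was at 0.258, 4.55 and 8.32 CPM in LCtx, 52.1, 133 and 178 CPM in DS, and 43.2, 80.6 and 152 CPM in NAc. Neither gene overlapped between LCtx and striatum. Against DS, the log2FC of Adora2a was -6.78 ± 0.28 (acute), -4.71 ± 0.11 (repeated) and -4.23 ± 0.15 (challenge).

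Drd2, the dopamine D2 receptor, lies on chr9:49340627-49408177. It was at 1.17, 10.6 and 25.5 CPM in LCtx, 233, 279 and 437 CPM in DS, and 119, 168 and 231 CPM in NAc. The highest LCtx value was that of the acute mouse that stood apart, and the other 7 acute mice had 1.17 to 3.07 CPM. The log2FC of Drd2 in the acute treatment was -6.21 ± 0.24 against DS and -5.09 ± 0.24 against NAc with this mouse, and -7.38 ± 0.11 and -6.26 ± 0.11 without it. In repeated and challenge mice it was -4.60 ± 0.09 and -4.41 ± 0.08 against DS.

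Penk, the enkephalin precursor on chr4:4133531-4138819, was at 49.8, 197 and 281 CPM in LCtx, 3890, 4790 and 5740 CPM in DS, and 2470, 3310 and 4110 CPM in NAc. Within LCtx its median was 60.71 CPM (acute), 204.9 CPM (repeated) and 216.7 CPM (challenge), where treatment and run cannot be told apart. The acute mouse that stood apart had 253 CPM, and the acute log2FC against DS was -5.76 ± 0.21 with it and -6.22 ± 0.08 without it. Ppp1r1b, the phosphatase inhibitor through which dopamine acts on many targets, was at 65.7, 152 and 208 CPM in LCtx, 2810, 3360 and 5090 CPM in DS, and 1490, 2080 and 2680 CPM in NAc. Its log2FC after challenge was -4.27 ± 0.07 against DS and -3.61 ± 0.07 against NAc.

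Six3, a homeobox factor of the striatal lineage, was at 0, 6.09 and 27.5 CPM in LCtx and at least 72.8 CPM in every striatal mouse. Its acute log2FC was -4.89 ± 0.32 against DS and -5.03 ± 0.32 against NAc with that mouse, and -7.03 ± 0.17 and -7.17 ± 0.17 without it. Serpina9, a serine protease inhibitor, had similar levels in both striatal structures, with medians of 82.9 CPM in DS and 83.8 CPM in NAc against 4.08 CPM in LCtx. In acute LCtx mice Serpina9 was at 3.78 CPM in the mouse that stood apart and at most at 0.699 CPM in the other 7. Ido1, which breaks down tryptophan, was at most 5.97 CPM in LCtx, 79.3 to 174 CPM in DS and 29 to 54 CPM in NAc.

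Cd4, the T cell co-receptor, was at 0 to 5.23 CPM in LCtx, 99.4 to 164 CPM in DS and 17.4 to 54 CPM in NAc, and Sh3rf2, a RING finger protein, at 0 to 4.99, 61.7 to 125 and 19 to 38.2 CPM. Syndig1l, a synapse-differentiation protein family member, was at 3.32 to 21.8 CPM in LCtx, 544 to 879 CPM in DS and 157 to 316 CPM in NAc. For these genes DS, NAc and LCtx each held a range of their own. Musk, the kinase that organises the neuromuscular junction, had at most 3 counts in every LCtx library, and DS was at least 5.91-fold higher in repeated and at least 3.71-fold higher in challenge mice.

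**Figure D2:**
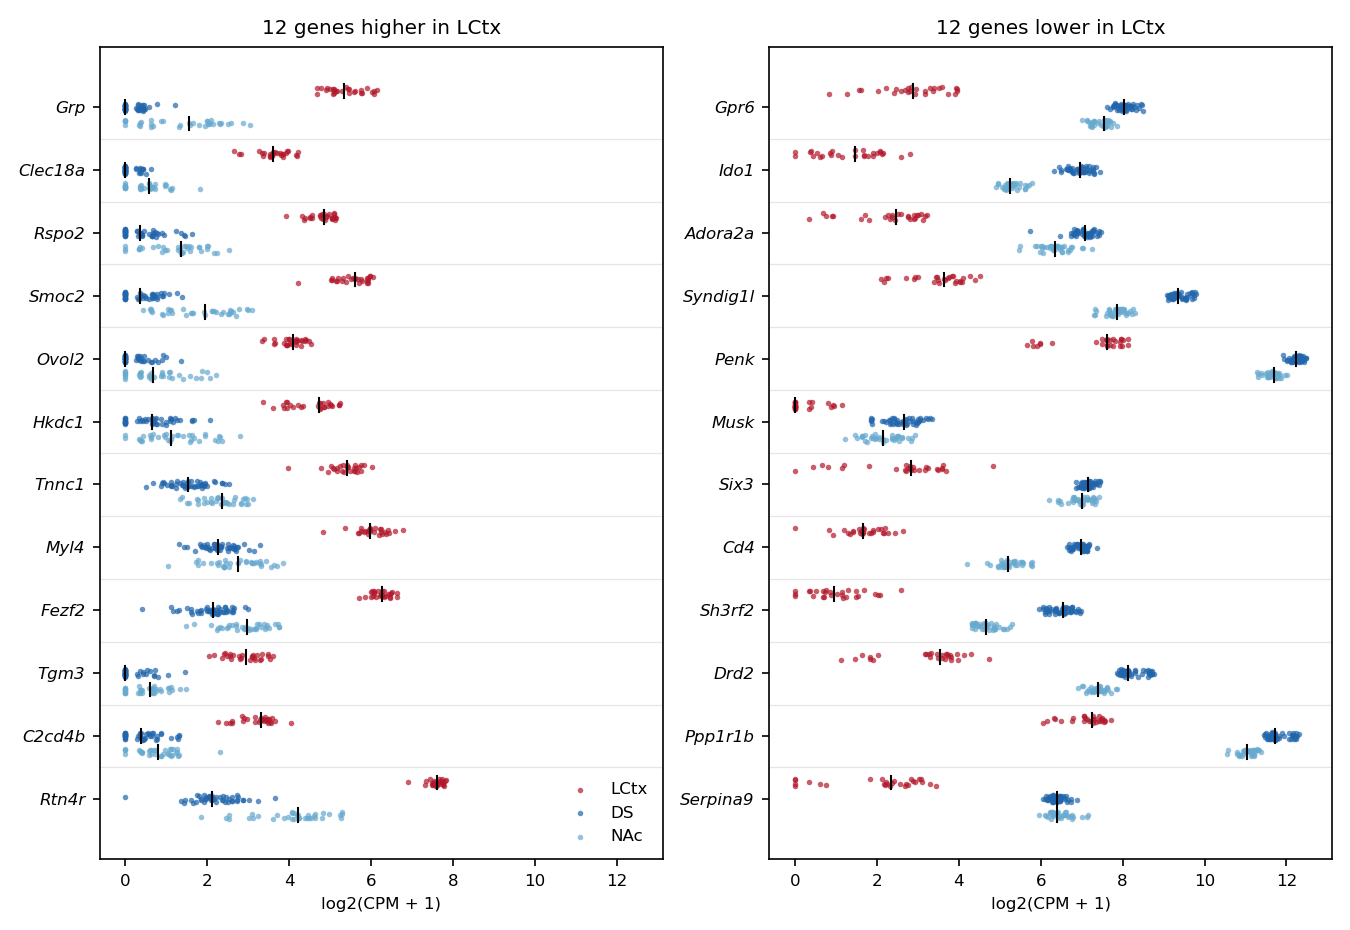
Levels of the 24 genes with the largest smallest difference, 12 higher (left) and 12 lower (right) in LCtx, as log2(CPM + 1) on the x axis. Points are mice (28 LCtx, 48 DS, 36 NAc, all treatments) and black ticks are medians. LCtx stands clear of both striatal structures for every gene except C2cd4b, where 1 NAc mouse at 3.99 CPM lies above the lowest LCtx mouse at 3.78 CPM.

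The lists of the pathways and cell types were read by counts of kept members, beside 11.7% higher and 10% lower over all genes tested. In the cortical projection neuron list, 17 of 20 genes were kept as higher and 0 as lower, with a median log2FC of 5.05 against DS and 3.44 against NAc in acute mice, 4.98 and 2.55 in repeated, and 4.53 and 2.21 in challenge mice. All genes tested had a median near 0. Slc17a7, the vesicular glutamate transporter, was at 771, 1250 and 1590 CPM in LCtx, 4.81, 14.5 and 55.8 CPM in DS, and 21.3, 162 and 502 CPM in NAc. Its NAc median was 82.43 CPM (acute), 158.8 CPM (repeated) and 218.5 CPM (challenge), and its log2FC against NAc was 3.41 ± 0.33, 2.70 ± 0.22 and 2.31 ± 0.20. Here too the runs differed between treatments.

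Neurod6, a factor of cortical pyramidal neurons, was at 91.8 to 180 CPM in LCtx, at most 11.6 CPM in DS and at most 57.2 CPM in NAc. Emx1, a homeobox factor of the cortical lineage, was at 16.4 to 40.3 CPM in LCtx, at most 3.17 CPM in DS and at most 8.92 CPM in NAc. Tbr1, a factor of deep-layer neurons, was at 82.5 to 157 CPM in LCtx, at most 12.5 CPM in DS and at most 58.5 CPM in NAc. Cck, the peptide cholecystokinin, was at 1190, 2300 and 3100 CPM in LCtx, 28.8, 50.6 and 143 CPM in DS, and 44.9, 283 and 949 CPM in NAc. These genes all separated LCtx from striatum, and each reached higher in NAc than in DS.

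The 3 cortical genes that were not kept missed the rule in different ways. Nrgn, which binds calmodulin at synapses, was at 1780 to 2880 CPM in LCtx, 2000 to 3360 CPM in DS and 407 to 797 CPM in NAc, with log2FC of -0.29 ± 0.07 against DS and 2.01 ± 0.06 against NAc in acute mice. Camkv had log2FC of -0.72 ± 0.05 against DS in acute and 0.17 ± 0.04 in challenge mice, a change of sign between treatments that also differed in run. Emx2, a cortical homeobox factor, was above 0 in all 6 contrasts but missed against DS in challenge mice, with log2FC of 0.17 ± 0.12 (0.74 ± 0.12 in acute mice). Camk2a, the calcium/calmodulin kinase of excitatory synapses, was kept with a smaller difference, 683 CPM in LCtx against 311 in DS and 323 in NAc as medians, and its ranges overlapped.

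Genes of cortical layers moved in both directions. Of the upper-layer list, 5 of 15 were kept as higher (Cux2, Lmo4, Nectin3, Rasgrf2, Stard8) and 2 as lower (Cux1, Kitl), of which 1 was kept without the repeated LCtx mouse 1 hr replicate 1 and 0 with a fold over 1.5. Cux2 was at 46.9 to 121 CPM in LCtx and at most 37 CPM in striatum, whereas its relative Cux1, with overlapping ranges, was at 44.3 to 71.7 CPM in LCtx, 62.9 to 109 CPM in DS and 70.6 to 97.9 CPM in NAc. Of the deep-layer list, 7 of 20 were kept as higher (Ctgf, Fezf2, Ntsr1, Parm1, Rprm, Sla, Tbr1) and 5 as lower (Crym, Foxp2, Pou3f1, Syt6, Tle4). Foxp2, a forkhead factor of layer 6 that spiny projection neurons also express and that both lists hold, was at 6.73 to 34.8 CPM in LCtx, 70.8 to 192 CPM in DS and 104 to 173 CPM in NAc.

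All 29 tested genes of the striatal projection neuron list were kept as lower, with a median log2FC of -4.22 against DS and -3.62 against NAc in acute, -3.80 and -3.06 in repeated, and -3.61 and -2.96 in challenge mice. Drd1, the D1 receptor, was at 9.08, 20.2 and 26.5 CPM in LCtx, 258, 375 and 462 CPM in DS, and 139, 187 and 229 CPM in NAc. Tac1, the substance P precursor, was at 26.5 to 124 CPM in LCtx, 626 to 1120 CPM in DS and 712 to 1360 CPM in NAc. LCtx and striatal ranges overlapped for Ebf1, Sp9 and Pdyn. Pdyn, the dynorphin precursor, was at 26.3 to 86.1 CPM in LCtx, 69.4 to 237 CPM in DS and 349 to 598 CPM in NAc, with log2FC of -0.99 ± 0.13 against DS and -2.88 ± 0.14 against NAc in repeated mice.

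Of 37 genes of the dopamine and cAMP cascade, 26 were kept as lower and 4 as higher, and several of the 26 are also in the striatal list. Family members were on opposite sides. The adenylyl cyclase Adcy5, the main striatal isoform, was at 118 to 205 CPM in LCtx, 1120 to 1770 CPM in DS and 598 to 993 CPM in NAc. Adcy1, a calmodulin-stimulated isoform, was instead at 274 to 531 CPM in LCtx, 79.7 to 141 CPM in DS and 63.6 to 162 CPM in NAc, and Adcy2 had medians of 120, 36.8 and 50.7 CPM with no overlap. Of the phosphodiesterases in the list, Pde10a, Pde1b, Pde1c, Pde4b, Pde7b and Pde8b were kept as lower, Pde1a as higher and Pde2a as neither. Pde1b was at 157 to 249 CPM in LCtx and 1010 to 2670 CPM in striatum, and Pde1a was at 197 to 330 CPM in LCtx, 14.1 to 57.8 CPM in DS and 90.7 to 236 CPM in NAc. Gnal, the G protein alpha subunit that couples dopamine D1 and adenosine receptors to cyclase, was at 97.1 to 171 CPM in LCtx and 468 to 882 CPM in striatum.

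Of 34 glutamate receptor genes and their auxiliary subunits, 9 were kept as higher and 6 as lower. Grm2, a presynaptic metabotropic receptor, was at 31.4, 56.5 and 84.2 CPM in LCtx, 0, 1 and 3.28 CPM in DS, and 2.39, 6.69 and 15.5 CPM in NAc. Grm4, of the same family, was at 6.82 to 17.8 CPM in LCtx and 37.3 to 104 CPM in striatum. Grin2a and Grin3a of the NMDA receptors were kept as higher with overlapping ranges, and no AMPA receptor gene (Gria1 to Gria4) was kept. Gria2 had log2FC of -0.03 ± 0.04 against DS in acute and -0.95 ± 0.05 in repeated mice, where the runs of both structures differed as well.

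The GABA synthesis and transport list had 4 of 6 genes kept as lower and 0 as higher. Gad1, which makes GABA, was at 253, 302 and 613 CPM in LCtx, 639 to 1070 CPM in DS and 630 to 837 CPM in NAc. Gad2 was at 82 to 335 CPM in LCtx, where the acute mouse that stood apart held the highest value, and its acute log2FC against DS was -1.52 ± 0.17 with it and -1.92 ± 0.06 without it. Of 12 GABA-A receptor subunits, 3 were kept as higher, among them Gabra3 and Gabra5, and Gabra4, Gabrd and Gabrg3 as lower. Gabra4 was at 46 to 79.1 CPM in LCtx, 116 to 243 CPM in DS and 73.1 to 134 CPM in NAc, and Gabrd, an extrasynaptic subunit, at 39.6 to 97.7 CPM in LCtx and 97.7 to 264 CPM in striatum.

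Of 22 interneuron genes, 7 were kept as higher and 1 (Tac1) as lower. Vip, the peptide of disinhibitory cortical interneurons, was at 38.3, 76.1 and 103 CPM in LCtx, 0, 1.56 and 4.58 CPM in DS, and 1.97, 9.35 and 29.7 CPM in NAc. Cort, cortistatin, overlapped with NAc and was at 22.2 to 64.8 CPM in LCtx, at most 3.52 CPM in DS and at most 36.8 CPM in NAc. Pvalb was kept with overlapping ranges, at medians of 48, 30.1 and 19.2 CPM. Sst and Npy were not kept: after challenge their log2FC against NAc was 0.07 ± 0.05 and -0.15 ± 0.05. All 5 tested genes of the cholinergic list were kept as lower, among them the choline transporter Slc5a7, at 0 to 12.9 CPM in LCtx, 28.2 to 67 CPM in DS and 13.4 to 34.8 CPM in NAc.

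Receptors for serotonin and noradrenaline fell on both sides, with 5 of 13 kept as higher and 4 as lower. Htr1a, an inhibitory serotonin receptor, was at 7.19 to 20.2 CPM in LCtx, at most 3.74 CPM in DS and at most 9.21 CPM in NAc. Htr1b, a presynaptic receptor of projection neurons, was at 10.4 to 24.3 CPM in LCtx, 81 to 178 CPM in DS and 32.8 to 67.6 CPM in NAc. Htr2c was at 27.5 to 75.9 CPM in LCtx, 74.1 to 147 CPM in DS and 148 to 250 CPM in NAc.

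Signalling and adhesion lists were mixed. Of 35 calcium and calmodulin genes, 9 were kept as higher and 10 as lower. The kinase subunits Camk2a and Camk2b were on opposite sides, Camk2b at 653 to 749 CPM in LCtx, 1150 to 1660 CPM in DS and 897 to 1160 CPM in NAc, and the calmodulin-binding Pcp4 at 410 to 700, 3310 to 6220 and 1180 to 2250 CPM. Of 34 ephrin and semaphorin genes, 8 were kept as higher and 4 as lower, of 19 cadherins 5 and 1, and of 15 retinoid genes 2 and 4. The retinoic acid receptor Rarb was at 4.68 to 20.5 CPM in LCtx and 96.5 to 228 CPM in striatum, while Aldh1a2, which makes retinoic acid, was at 2.72 to 20.7 CPM in LCtx and at most 5.22 CPM in striatum. Of 16 immediate-early genes, 3 (Btg2, Fos, Ier2) were kept as higher, and 0 were in 0 hr mice alone or without replicate 1. Arc was not kept, with log2FC of -0.40 ± 0.21 against DS and 1.17 ± 0.22 against NAc in acute mice.

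Among other cell types, the oligodendrocyte list stood out, with 11 of 12 genes kept as lower. Its median log2FC was -2.15 against DS and -1.67 against NAc in acute, -2.12 and -1.90 in repeated, and -1.94 and -1.66 in challenge mice. Mbp, the myelin basic protein, was at 598, 777 and 1950 CPM in LCtx, 3100, 5060 and 7150 CPM in DS, and 1690, 3120 and 4020 CPM in NAc. The LCtx range reached into that of NAc by the acute mouse that stood apart, which held 1950 CPM against 716 to 1220 CPM in the other 7 acute mice. Pdgfra, which marks oligodendrocyte precursors, was the member not kept, with medians of 32.3, 29.1 and 27.8 CPM. Of 12 astrocyte genes, 2 (Gfap, Gjb6) were kept as higher, of 8 choroid plexus and ependymal genes 3 (Clic6, Foxj1, Rarres2) as lower, and of 10 microglial, 12 endothelial and mural, and 4 blood genes 0.

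**Figure D3:**
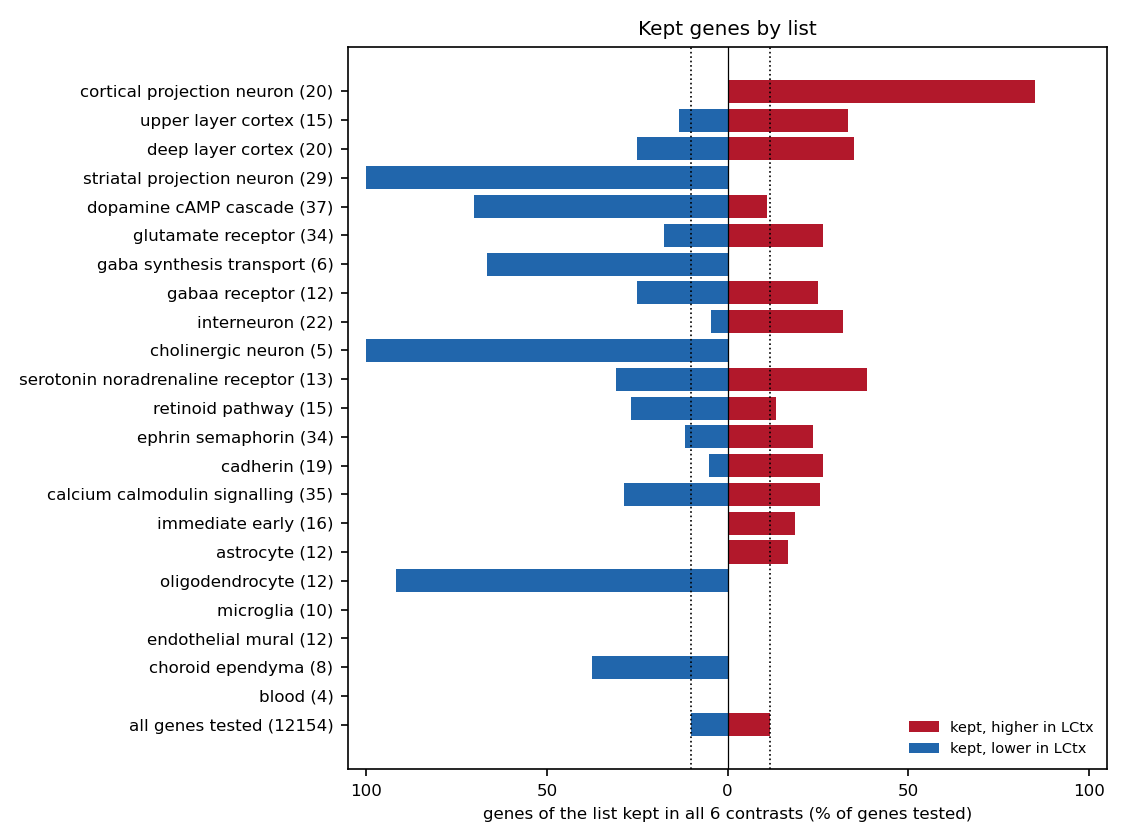
Share of each list's tested genes (number in brackets) kept as higher in LCtx (red, to the right) or lower (blue, to the left), in percent. Dotted lines mark the shares over all 12154 genes tested, 11.7% and 10%. The cortical list reaches furthest to the right (17 of 20), and the striatal (29 of 29) and cholinergic (5 of 5) lists to the full width on the left.

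**Figure D4:**
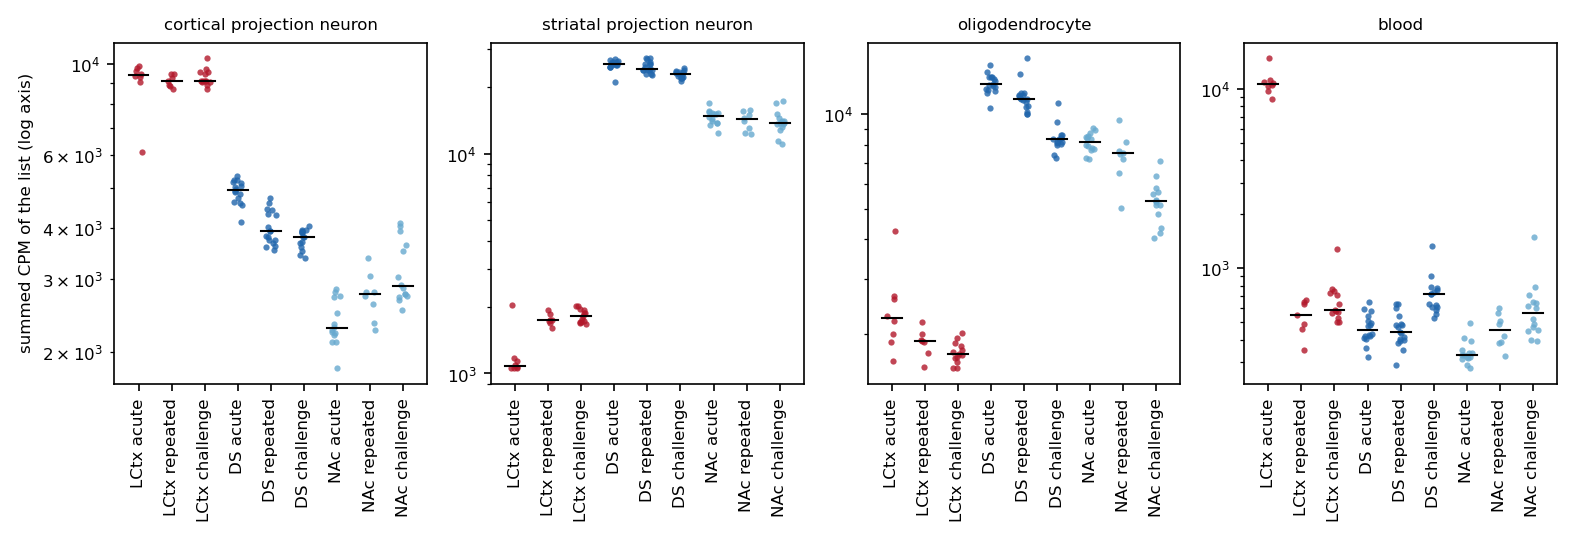
Summed CPM of 4 marker lists (log y axes that differ between panels) by structure and treatment, with a point for each mouse and a line at the median. The low cortical and high striatal and oligodendrocyte points in acute LCtx are the same mouse (6120, 2050 and 4270 CPM). The blood list sits at 8817 CPM or more in all 8 acute LCtx mice and at or below 1492 CPM in all other mice.

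The size of the LCtx difference from NAc was compared between challenge and repeated mice, the treatments in which both structures shared runs, although mice and runs differed between the treatments. Both contrasts were used by the rule, so the counts and values of kept genes here are a description and support nothing about them. Of 12502 genes tested in edgeR, 14 (0.112%) had a higher and 13 (0.104%) a lower signed log2FC in challenge at an adjusted p under 0.05 and a 1.2-fold change, and 991 had an unadjusted p under 0.05. Of the 1422 genes kept as higher, 0 had a higher and 3 a lower value, and of the genes kept as lower 6 and 1. With the animal as a block there were 25 and 44 genes over all, with 1 and 9 of those kept as higher and 8 and 3 of those kept as lower, and with DESeq2 25 and 33. Of the 10 kept genes called without the block, 9 are described here, and all of the 9 but Efnb3, which is in the lists, were chosen after their values were seen.

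Efnb3, the ligand ephrin-B3, was at 53.1, 71.8 and 79.6 CPM in repeated and 92.4, 102 and 128 CPM in challenge LCtx mice, with no overlap, and at 137 to 161 and 126 to 190 CPM in NAc. Its LCtx minus NAc log2FC was -1.09 in repeated and -0.50 in challenge mice, a difference of 0.59 ± 0.09. The LCtx deficit of Nrsn2, Gm13889, Doc2b, Asic4 and Pdxk was smaller in challenge, by 0.55 ± 0.09, 0.52 ± 0.10, 0.60 ± 0.14, 0.48 ± 0.11 and 0.29 ± 0.07. Ano3 had a larger deficit (-0.44 ± 0.10), and Dkk3 and Osbpl1a a smaller excess (-0.34 ± 0.08 and -0.40 ± 0.09).

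Amygdala (Amy) and lateral hypothalamus (LH), from structures that the rule did not use, were compared in 16 acute and repeated mice that gave both structures, all sequenced in 1 run. Of these mice, 8 were also LCtx mice of the rule. Over all 12041 genes tested, 22.8% were higher and 21.8% lower in Amy than in LH. Of 1388 tested genes kept as higher in LCtx, 591 (42.6%) were higher in Amy and 270 (19.5%) lower. Of 1125 tested genes kept as lower in LCtx, 311 (27.6%) were higher in Amy and 367 (32.6%) lower. The fit did not use the pairing, and with the animal as a block 595 and 310 of the genes kept as higher and lower were higher in Amy, and 268 and 366 lower.

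Grp had a log2FC of 2.60 ± 0.14, Rspo2 of 3.19 ± 0.13, Fezf2 of 2.33 ± 0.12 and Rtn4r of 1.86 ± 0.06 for Amy minus LH (edgeR adjusted p = 4.69e-28, 2.36e-36, 2.25e-26 and 2.45e-38, in the same order). Tnnc1 did not pass (-0.24 ± 0.12, adjusted p = 0.0695). Of the 12 genes with the largest smallest difference downwards, 7 were tested, and 0 of them were lower in Amy in this fit, which pooled acute and repeated mice. Adora2a, Penk, Ppp1r1b, Gpr6 and Six3 were higher in Amy, the first 3 with log2FC of 2.88 ± 0.24, 1.29 ± 0.10 and 1.81 ± 0.11 (edgeR adjusted p = 1.92e-12, 4.89e-12 and 8.87e-15). Drd2 and Syndig1l did not pass in the pooled fit, at -0.15 ± 0.16 and -0.15 ± 0.10 (edgeR adjusted p = 0.434 and 0.167), and a pooled value does not show differences between the treatments.

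Against Amy after challenge, with the LCtx libraries shared with the rule, 18.5% of 11679 genes were higher and 18.3% lower in LCtx. Of the genes kept as higher, 43.8% were higher and 10.4% lower in LCtx than in Amy, and of those kept as lower 11% and 42.9%. The rule chose the kept genes partly by these LCtx libraries, so their shares are a description and support nothing about them. Over all 31 Amy mice, Grp was at 9.29, 22.8 and 30.8 CPM, above every striatal mouse and overlapping with LCtx, and Ovol2 at 0.298 to 3.21 CPM, below every LCtx mouse. Slc17a7 was at 420 to 1220 CPM in these mice, and Drd2 at 9.81 to 33.8 CPM, overlapping with LCtx.

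**Figure D5:**
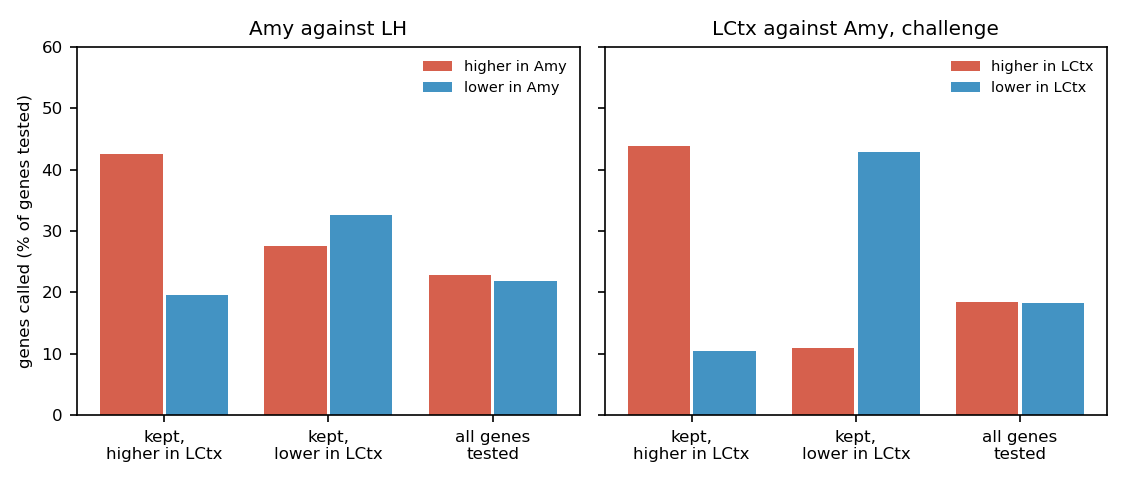
Share of genes called higher or lower (y axis, percent of genes tested) in Amy against LH (left) and in LCtx against Amy after challenge (right), for genes kept as higher, kept as lower and all genes tested. Genes kept as higher in LCtx were called higher in Amy than in LH in 42.6% of cases against 22.8% over all genes. The right panel shares LCtx libraries with the rule and is a description.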

How the data were processed

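3′-RNA-seq with unique molecular identifiers was measured in dissected brain structures. The deposited values are raw counts per gene, which the authors made by alignment with STAR to GRCm38 and counting with HTSeq; tool versions and the annotation are not given in the sources used here. No column was left without a sample. Libraries of 1 mouse were summed, and the 24 DS libraries of a further sequencing run were left out, except in an alternative. Whether counting used strand is not given in the sources used here, so values of genes with an antisense or overlapping partner are uncertain.

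Contrasts were fitted per treatment with edgeR 4.0.16 under R 4.3.3 (genes filtered by structure with filterByExpr, scaled by TMM and tested by the quasi-likelihood F test, with time as a factor), and genes were called at an adjusted p under 0.05 and a fold over 1.2. CPM used TMM factors over all mice. DESeq2 1.42.0 was an alternative. Fits were tested on simulated data. Figures used matplotlib 3.10.9, and coordinates are GENCODE vM21 on GRCm38. Replicates are separate mice of a group. The cohort and animal numbers of the labels pair structures of a mouse: same-mouse deviations correlated at -0.064 to 0.263 (median 0.043, 51 pairs), and over 0.1 in 8 pairs, of which 7 were among the 12 pairs of LCtx with NAc after challenge (0.069 to 0.263, median 0.112). Named genes are the 12 per direction with the largest smallest absolute log2FC of the 6 contrasts, genes of the lists, and those nearest the threshold. The members and lists were chosen with earlier results of these data known. Alternatives covered scaling, test, filter, fold, blocks, time, DS run, depth and left-out mice. Values of some genes of the lists are not reported here.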

Additional observations from a re-analysis of the deposited data

Results flagged for a closer look

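Of 72 gene and group pairs checked for a mouse far from the others of its group of 7 or 8 (the 24 named genes in acute LCtx, repeated LCtx and repeated NAc), 12 had such a mouse, where chance gives about 1 in 20. In 10 of them, or 9 without Musk, which rests on 3 counts, it was the acute LCtx mouse labelled 1 hr replicate 2. Among genes kept as higher, this mouse was below the other 7 for Smoc2 (17.4 CPM against 31.8 to 47.5), Tnnc1 (14.6 against 31.5 to 51.2), Myl4 (27.5 against 55.7 to 79.4) and Rtn4r (119 against 195 to 227). Among genes kept as lower, it was above them for Syndig1l (15.9 CPM against 3.32 to 7.03), Penk (253 against 49.8 to 76.4), Musk (0.756 against 0, at the floor of 3 counts), Six3 (27.5 against 0 to 2.51), Drd2 (25.5 against 1.17 to 3.07) and Serpina9 (3.78 against 0 to 0.699). It lay on the striatal side of its group in each of these, and all 24 named genes were kept without it. For Adora2a it was within the range of the other 7 (2.27 CPM against 0.258 to 2.51). The other such mice were repeated NAc 4 hr replicate 1 for Grp (0.545 CPM against 1.93 to 3.43) and repeated LCtx 0 hr replicate 1 for Clec18a (5.24 CPM against 11.2 to 14.7).

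The LCtx minus NAc log2FC of 9 kept genes is given for challenge minus repeated mice, since they passed the edgeR test of that difference over all genes. The rule used both contrasts, and mice and runs differed between the treatments, so the values are a description. Over all genes, 13 were below 0 in that test and 44 with the animal as a block. It was higher on the log2 scale in challenge by 0.48 for Asic4, 0.60 for Doc2b, 0.59 for Efnb3, 0.52 for Gm13889, 0.55 for Nrsn2 and 0.29 for Pdxk, and changed by -0.44 for Ano3, -0.34 for Dkk3 and -0.40 for Osbpl1a.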

How the results depend on the processing

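In every alternative run, no kept gene changed from higher to lower or back, and 161 counts over genes, beside all 448 with a mouse or replicate number left out, stayed within 1.5 times, while 29 did not. The kept counts moved by more under a stricter fold and with fewer times. A fold over 1.5 left 775 higher and 644 lower genes, and in the order DS then NAc it left 2104 higher and 1721 lower and 1710 and 1437 in acute, 2310 and 2282 and 1393 and 1162 in repeated, and 2337 and 2363 and 1352 and 1136 in challenge mice. With 0 hr mice only, 803 and 594 genes were kept, and calls against NAc fell to 1421 higher and 1206 lower in repeated and 1689 lower in challenge mice. Both alternatives lower counts by construction. List counts moved by over 1.5 times in 30 cases. With 0 hr mice only, those kept as higher were 4 for deep-layer, 5 for glutamate receptor, 3 for serotonin and noradrenaline receptor, 1 for retinoid, 0 for cadherin, 0 for immediate-early and 1 for astrocyte genes, and those kept as lower were 1 for upper-layer and 1 for choroid and ependymal genes. A fold over 1.5 left as lower 0 upper-layer, 3 deep-layer, 2 ephrin and semaphorin, 0 cadherin and 5 calcium genes, and as higher 3 cadherins. Thinning left as higher 2 serotonin and noradrenaline receptors, 0 retinoid and 1 immediate-early gene, and as lower 1 upper-layer gene. Without replicate 1, those kept were 3 serotonin and noradrenaline receptors and 0 immediate-early genes as higher and 1 choroid gene as lower. Without replicate 2 there were 3 cadherins and 1 astrocyte gene as higher, without replicate 3 there was 1 upper-layer gene as lower, as also without repeated LCtx 1 hr replicate 1 and with the block by label number, and without replicate 4 there was 1 retinoid gene as higher. DESeq2 kept 5 choroid genes as lower, and with no filter 1 blood gene was kept as higher. Leaving out mice or replicate numbers gave 1164 to 1434 genes kept as higher and 921 to 1253 as lower. The difference between challenge and repeated gave, above and below 0, 25 and 33 genes with DESeq2 (1 and 6 of those kept as higher, 2 below 0 of those kept as lower) and 25 and 44 with the replicate block by animal number (1 and 9, and 3); the cause was not tested. The replicate block by animal number kept 1387 and 1193 genes in the 6 contrasts and moved no other count over all genes by over 1.5 times; that by the replicate number of the labels kept 1395 and 1180. Clec18a, Ovol2, Tgm3, C2cd4b and Musk were not kept after thinning to the smallest library, nor Tgm3 without replicate 1 or without any 1 of 3 challenge mice. Depth limits the genes near 0 in 1 structure. Bounds are given where every library of the low group had at most 3 counts, while the fitted values of Smoc2 against DS and of Grp against acute NAc rest on at most 5 counts in each library of the low group.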

Other observations

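Beyond the kept genes, 51 genes lay between the striatal structures, called higher in LCtx than in 1 of them and lower than in the other in all 3 treatments. Ttr, the transthyretin of choroid plexus, had log2FC in acute mice of -6.30 ± 0.40 against DS and -6.58 ± 0.39 against NAc, and of 0.80 ± 0.13 and -0.09 ± 0.15 in repeated mice. The hemoglobin gene Hba-a1 had log2FC of 5.20 against DS and 5.14 against NAc in acute and 0.21 and 0.23 in repeated mice. For both genes the runs differed between acute and repeated mice.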
